A study of Drosophila melanogaster with 6 samples.

Results

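The sodium pump subunit genes of *Drosophila melanogaster* were followed in embryos that carried a mutant allele of insensitive (insv) and in wild-type embryos. The subunits were selected by symbol: Atpalpha, nrv1, nrv2 and nrv3. Of these 4 genes, 3 had a probe set that the platform annotation assigns to them alone, with 1 probe set each among 18769 probe sets in all. These were the beta subunit genes nrv1, nrv2 and nrv3, and the catalytic subunit gene Atpalpha was not analysed here. The choice of genes was made with the mutant minus wild-type contrast in view, so their values in that contrast are given as a description, without a test.

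The sodium pump is a plasma membrane ATPase that exports sodium and imports potassium, and the gradients it builds drive nerve impulses and the uptake of transmitters and nutrients. An alpha subunit, in flies mainly Atpalpha, carries out transport. A glycosylated beta subunit, of the Nervana proteins in flies, brings the alpha subunit to the membrane. Nrv1 and Nrv2 are found in epithelia, Nrv2 with Atpalpha is also part of the septate junctions that seal the spaces between epithelial cells, and nrv2 is active in glia as well. Nrv3 is known from the nervous system. Insv is a nuclear BEN-domain repressor made in neural precursors.

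Total RNA came from whole embryos of 6 to 8 h, kept at 25 °C, and was hybridised to 6 Affymetrix arrays. There were 3 arrays of the insv mutant, allele insv[23B], and 3 of wild type, strain w[1118]. The labels name no further allele and no treatment. Whether the mutant embryos came from a homozygous stock, and whether that stock shares its genetic background with w[1118], is not stated in those labels. They call the arrays replicates without naming separate collections, so every error and p-value here reflects only how these 3 arrays of a genotype scatter, which could be technical scatter. The values are log2 expression levels. In bulk RNA, fewer cells of a type and less RNA per cell cannot be told apart.

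Arrays of the same genotype correlated at 0.996 to 0.998 across 8334 tested probe sets, and arrays of different genotypes at 0.905 to 0.906. The insv probe set read 10.9 on every wild-type array and 4, 3.6 and 4.2 on the mutant arrays, so the labels matched the level of the mutated gene. Two-sided limma tests with Benjamini-Hochberg adjustment called 65.5% of the tested probe sets at an adjusted p under 0.05, 24.7% as higher and 40.8% as lower in the mutant. The median difference over tested probe sets was -0.10. Spiked-in Bacillus control transcripts, foreign to the fly, read lower on every mutant array, with a median of -1.43 over 23 probe sets (range -1.77 to -0.90). Hybridization controls of other microbes shifted less, by a median of -0.55 over 18 probe sets, of which 16 did not overlap between genotypes, so a single constant does not level both kinds of control. How the arrays were handled and the genotype cannot be told apart, and the part of this difference in the results below was not tested.

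The neural beta subunit gene nrv3 was far higher in the mutant, the epithelial gene nrv1 was moderately higher, and nrv2 read alike in both genotypes on the deposited scale. The nrv3 probe set read 6.5, 6.2 and 6.3 on the wild-type arrays and 9.7 on each of the 3 mutant arrays. All mutant values lay more than 3 log2 units above the highest wild-type value, and the mutant arrays were identical to the decimal given. The wild-type mean was 6.33 ± 0.15 and the mutant mean 9.70 ± 0 (SD, n = 3 each), a difference of 3.37 ± 0.08 on the log2 scale (SE), or 10.3-fold. The wild-type mean stood 4.13 above the floor of 2.2 at which unexpressed probe sets lie, so this fold change was not measured against the floor.

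The nrv1 probe set read 10.9, 10.9 and 11.0 in wild type and 11.5, 11.7 and 11.8 in the mutant. The genotypes did not overlap, and the gap between the nearest arrays was larger than the range within either genotype. The wild-type mean was 10.93 ± 0.06 and the mutant mean 11.67 ± 0.15 (SD, n = 3 each), a difference of 0.73 ± 0.09 (SE), or 1.66-fold. Nrv1 belongs to the beta subunits known from epithelia.

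The nrv2 probe set read 12.0, 12.1 and 12.0 in wild type and 12.0, 12.1 and 12.0 in the mutant. The genotypes overlapped fully. The mean was 12.03 ± 0.06 in both (SD, n = 3 each), a difference of 0.00 ± 0.05 (SE). On a scale that gives the Bacillus controls the same mean on every array, nrv2 was higher in the mutant, by 1.39 ± 0.33 (SE), so its likeness between genotypes holds for the deposited, quantile-normalised and median-centred scales, where the difference was 0.00, 0.02 and 0.10.

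The genotypes did not overlap for nrv1 and nrv3, nor for 65.6% of the tested probe sets. The subunit genes were chosen in view of this contrast, so nothing is read from that count. Among 6932 genes tested, 195 had a larger positive difference than nrv3 and 1055 a larger one than nrv1. A difference within 0.1 of zero, like that of nrv2, was seen for 21.1% of these genes.

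**Figure D1:**
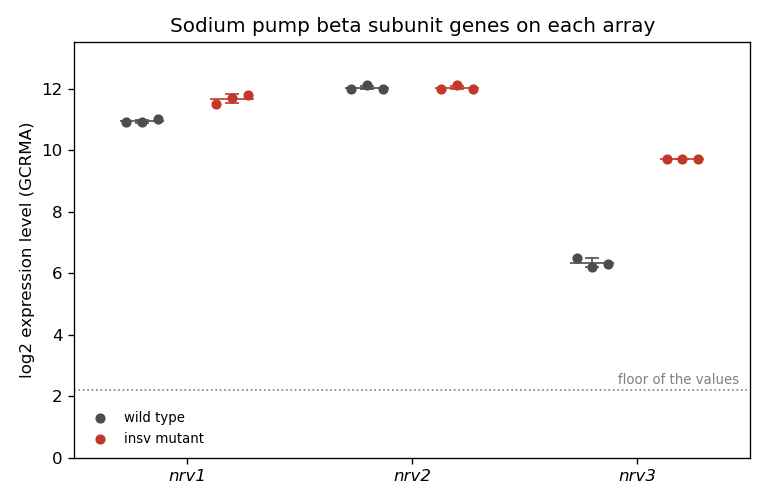
Log2 expression level (vertical axis) of nrv1, nrv2 and nrv3 on each of the 3 wild-type (grey) and 3 insv mutant (red) arrays, with the mean (horizontal bar) and SD (error bar) and the floor of 2.2 (dotted line). The nrv3 points lie between 6.2 and 6.5 in wild type and at 9.7 in the mutant, those of nrv1 are separated by a smaller gap, and those of nrv2 coincide.

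**Figure D2:**
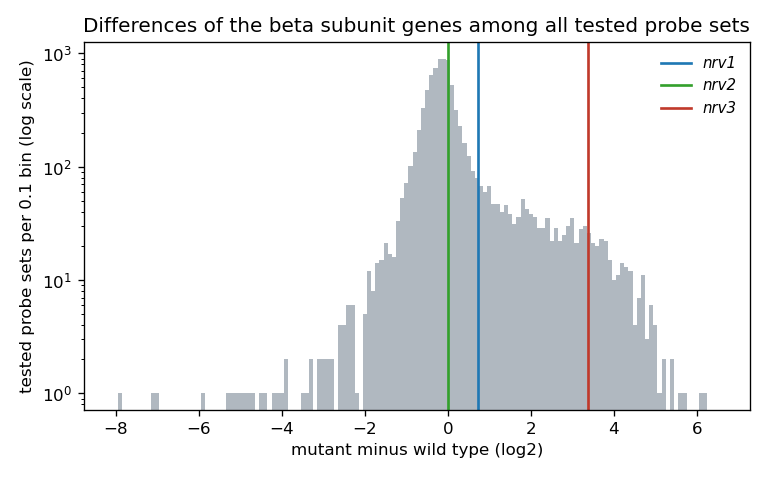
Mutant minus wild-type difference (log2, horizontal axis) of all 8334 tested probe sets, counted per bin of 0.1 on a log axis, with vertical lines at nrv1 (0.73), nrv2 (0.00) and nrv3 (3.37). The line of nrv3 stands in the long tail of higher probe sets, while that of nrv2 stands in the main peak.

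The relation between the neural and the epithelial subunit genes was read within each array, where a shift shared by all probe sets of an array drops out. Levels of different probe sets cannot be set against each other, so only the movement of the within-array difference between genotypes is given. Relative to its wild-type mean, nrv3 minus nrv2 stood at 0.20, -0.20 and 0.00 on the wild-type arrays and at 3.4, 3.3 and 3.4 on the mutant arrays. Every mutant array was thus more than 3 log2 units above every wild-type array. The shift was 3.37, with a pooled SD of 0.15 over the arrays of a genotype (n = 3 each).

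Against nrv1 the movement of nrv3 was smaller. Nrv3 minus nrv1 stood at 0.20, -0.10 and -0.10 in wild type and at 2.8, 2.6 and 2.5 in the mutant, a shift of 2.63 (pooled SD 0.16), or 6.20-fold. The pair of epithelial subunit genes also moved relative to each other. Nrv1 minus nrv2 stood at 0.00, -0.10 and 0.10 in wild type and at 0.60, 0.70 and 0.90 in the mutant, a shift of 0.73 (pooled SD 0.13). The genotypes did not overlap in any of these 3 pairings, but the genes were chosen in view of this contrast, so nothing is read from that. Since nrv2 read alike in both genotypes, the shifts of 3.37 and 0.73 against it repeat the differences of nrv3 and nrv1. A constant shift between arrays, such as the Bacillus scale, leaves these pairings as they are.

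**Figure D3:**
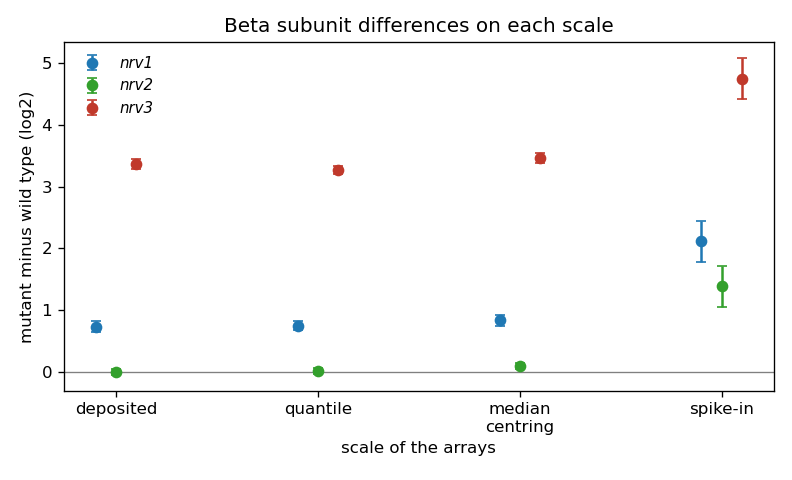
Mutant minus wild-type difference (log2, vertical axis, error bars SE) of nrv1, nrv2 and nrv3 on the deposited scale, after quantile normalisation, after centring each array on its median and on the scale of the Bacillus controls. The order nrv3, nrv1, nrv2 is the same on the 4 scales, while nrv2 moves from 0.00 on the deposited scale to 1.39 on the Bacillus scale.

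The 3 genes lie on chromosome arm 2L, where RefSeq (assembly Release 6 plus ISO1 MT) places nrv1 (CG9258) directly beside nrv2 (CG9261) and nrv3 (CG8663) elsewhere on the arm. The annotation lists 2 transcripts for nrv1, 6 for nrv2 and 4 for nrv3, and a single probe set per gene does not separate them. The genes around them were looked at after the values of the subunits were known. Around nrv1 and nrv2, the measured neighbours CG17378, LUBEL, CG11322, CG17376 and CG17377 were at the floor of 2.2 on every array, and Daao2 read 2.27 ± 0.06 in wild-type and 2.60 ± 0.52 in mutant embryos (SD, n = 3 each). Beside nrv3, CG8665 read 3.03 ± 0.06 and 3.20 ± 0.10, dtr 2.70 ± 0 in both genotypes, and the gustatory receptor gene Gr39b was at the floor. None of these neighbours reached the level needed for a test, and those beside nrv3 differed by at most 0.17. These lie on 1 side of nrv3. On its other side the nearest measured gene was 112 protein-coding genes away, so that side was left out.

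Genes with the most similar profile over the 6 arrays were sought by the smallest root mean square difference between profiles centred on their means. For nrv3 these were CG10911 and CG14302 (both 0.0577) and Cyp6a23 (0.0687), a cytochrome P450 gene. CG14302 read 6.6, 6.2 and 6.3 in wild type and 9.7, 9.6 and 9.7 in the mutant. CG10911 read between 2.4 and 2.6 in wild type, near the floor, and between 5.9 and 6.0 in the mutant.

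For nrv1 the closest profiles were those of chas (0.0373), CG6329 (0.0471) and Stam (0.05), which encodes an adaptor of endosomal sorting. Chas read 5.5, 5.5 and 5.6 in wild type and 6.2, 6.3 and 6.4 in the mutant, a difference of 0.77 that was 0.39 after quantile normalisation. The second probe set of CG6329 had a difference of 0.03, against 0.80 for the brighter one and 0.42 for their mean. For nrv2, 16 genes lay within 0.0373, and the first by symbol were AP-2sigma, a subunit of the clathrin adaptor, ATPsynepsilonL and CG13197, each with a difference of -0.03 on the deposited scale (1.35 on the Bacillus scale). After quantile normalisation ATPsynepsilonL fell, by 0.77 on the log2 scale.

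Other genes that encode pump-like subunits were silent or nearly so. CG3701 and CG11703, the latter with the synonym JYbeta2 in RefSeq, were at the floor of 2.2 on all arrays. CG5250 read 2.30 ± 0 in wild-type and 2.37 ± 0.12 in mutant embryos (SD, n = 3 each). The other 3 genes of this list were not analysed here.

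The further lists hold genes that work beside the pump or mark the cells in which its subunits are known. Each list is described by its calls and its median beside the same over all genes tested, of which 66.6% were called, 24.9% as higher and 41.7% as lower, with a median of -0.13. On the Bacillus scale 85 of the 86 list genes tested were called higher and 0 lower, by limma, against 43 and 9 on the deposited scale, so the directions below hold for the deposited scale.

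Septate junction genes, partners of Nrv2 in the epithelial barrier, differed little. Of 18 tested, 4 rose, 1 fell and 13 did not pass, with a median of 0.05. Cora, a band 4.1 protein that links the junction to the cytoskeleton, rose by 0.67 ± 0.14 (SE; limma adjusted p = 0.00956). Pck, a claudin of the junction, rose by 0.20 ± 0.02 (adjusted p = 0.00087) and Tsf2, a transferrin needed for junction assembly, by 0.17 ± 0.04 (adjusted p = 0.0111). The Tsf2 call was lost when noise within the rounding step was added (adjusted p = 0.0759), and its difference was 0.27 after centring on the array median. Pck did not vary within either genotype after rounding, and such noise gave 0.17 ± 0.06 for it (adjusted p = 0.0284). The polarity gene l(2)gl fell by 0.30 ± 0.07 on the log2 scale (adjusted p = 0.0133), but did not pass after centring on the array median (adjusted p = 0.0528) and was higher on the Bacillus scale, by 1.09. Without wild-type replicate 3, 7 genes were called higher and 3 lower.

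Epithelial markers were likewise close to level between genotypes. Of 8 tested, 2 rose and 0 fell (limma), with a median of 0.07. The lowest difference was that of shg, -0.47 ± 0.17 (SE), which did not overlap between genotypes but did not pass (limma adjusted p = 0.0549). The gene aPKC differed by -0.30 ± 0.13 (adjusted p = 0.0999), and both are named after their values were seen. Grh, a transcription factor of epidermal barrier formation, rose by 0.40 ± 0.02 (limma adjusted p = 6.43e-05), but its second probe set differed by -0.03 and the mean of both by 0.18. After rounding, the brighter probe set did not vary within either genotype, and noise within the rounding step gave 0.43 ± 0.06. Baz, an apical polarity protein, rose by 0.33 ± 0.10 (adjusted p = 0.0262), a call that was lost without any 1 of the mutant arrays or without wild-type replicate 1 or 2 (adjusted p = 0.0688 to 0.0913). Without wild-type replicate 1, 3 of these genes were called lower, and without replicate 3, 1 was. The mean level over the 8 measured genes was 10.3 to 10.5 on the wild-type arrays and 10.3 to 10.4 on the mutant arrays.

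Most of the tested neuronal markers were higher on the arrays on which nrv3 was higher. Of 10 tested, 7 rose, each at least 2-fold, and 0 fell (limma), with a median of 2.93, against 13.3% of all genes that were called and at least 2-fold higher. Several of the 7 passed the filter only with mutant arrays, as given below, and the list was chosen with earlier results known. Nothing is therefore read from that count. Gad1, which makes the transmitter GABA, differed by 3.87 ± 0.12 (SE). Rab3, a GTPase of vesicle release, differed by 3.63 ± 0.11. Cpx, a regulator of vesicle fusion, rose by 3.47 ± 0.12 on its brighter probe set (limma adjusted p = 1.28e-05) and by 2.00 on the other.

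Some neuronal markers did not move in this way, and those given here are named after their values were seen. Elav, an RNA-binding protein of nearly all neurons, read 12.20 ± 0.10 in wild-type and 12.13 ± 0.06 in mutant embryos (SD, n = 3 each; difference -0.07 ± 0.06 SE, limma adjusted p = 0.385). The other tested markers that did not pass were unc-13 (8.87 in wild-type and 8.90 in mutant embryos) and Csp (11.57 and 11.53). Of the 7 that rose, fne had the highest wild-type mean, 8.57, and a difference of 1.20 ± 0.05 (SE). The wild-type means of the others were at most 4.90. Among the untested markers, VGlut was at the floor on all arrays and brp read 2.33 in wild-type and 2.30 in mutant embryos. Genes under a level of 4 on all wild-type arrays could enter the test solely through high mutant values, which was the case for 3 of the 10, namely ChAT, Syn and Snap25. Of these, the synaptic vesicle gene Syn read 3.00 ± 0.17 in wild-type and 6.87 ± 0.15 in mutant embryos (SD, n = 3 each). Gad1 (4.0, 4.0 and 3.7) and Rab3 (4.1, 3.9 and 4.3) reached 4 on only some wild-type arrays. They too needed mutant arrays to pass the filter, so no p is given for them. Over all 15 measured genes the median was 1.20, and without the filter 8 were called higher and 0 lower. The mean level over these 15 was 4.90 to 4.99 on the wild-type arrays and 6.52 to 6.54 on the mutant arrays. The part of the neuronal markers in the nrv3 difference was not tested.

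Glial markers, listed because nrv2 is active in glia, stayed near their wild-type level. Of 7 tested, 3 rose and 1 fell, with a median of 0.17. Moody, a receptor of the glial blood-brain barrier, rose by 0.40 ± 0.07 (limma adjusted p = 0.00464). Mdy, a lipid synthesis gene that is not specific to glia, rose by 0.23 ± 0.05 (adjusted p = 0.00813). Gs2, a glutamine synthetase, rose by 0.20 ± 0.07 (adjusted p = 0.0496), a call that was lost when any array other than wild-type replicate 3 was left out (adjusted p = 0.0664 to 0.142). Gcm, the switch gene of glial fate, fell by 0.23 ± 0.04 on the log2 scale (adjusted p = 0.0032) and by 0.13 after median centring, but was higher on the Bacillus scale, by 1.15.

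Transporters that couple ion gradients to other substrates held both strong increases and smaller decreases. Of 11 tested, 5 rose, each at least 2-fold, 3 fell and 3 did not pass, with a median of 0.23. Kcc, a potassium-chloride cotransporter that does not carry sodium, rose by 1.30 ± 0.05 (SE; limma adjusted p = 1.45e-05). The other 4 increases, those of Gat, ine, Calx and ChT, belong to genes under a level of 4 on all wild-type arrays, which could be tested only because they were higher in the mutant, so no p is given for them. Gat, the GABA transporter, differed by 2.53 ± 0.22 (SE) and ine, of the transmitter transporter family, by 2.13 ± 0.24. Calx, a sodium-calcium exchanger, differed by 1.63 ± 0.12, and by 0.97 after quantile normalisation. The 3 decreases, named after their values were seen, were those of Nhe3 (-0.67 ± 0.15 SE), Nhe2 (-0.60 ± 0.18) and Nhe1 (-0.20 ± 0.07). Over all 19 measured genes the median was 0.17. Leaving out any mutant array, or wild-type replicate 2, turned the 3 decreases into 1.

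Ion channel genes of nerve were mostly low. Of 14 listed, 6 were tested, of which 4 rose, 3 of them at least 2-fold, and 2 fell, with a median of 0.68. Ca-alpha1D, a calcium channel, rose by 1.57 ± 0.22 (SE; limma adjusted p = 0.0024) and Ork1, a potassium leak channel, by 1.0 ± 0.15 (adjusted p = 0.00293), although Ork1 read 0.36 and did not pass after quantile normalisation (adjusted p = 0.0643). Cac, a presynaptic calcium channel, differed by 2.13 ± 0.24, but it was under a level of 4 on all wild-type arrays and was tested only through its mutant values. Over all 13 measured genes the median was 0.37. That normalisation left 2 channel genes called higher. Sei, an ERG-type potassium channel, fell by 0.10 ± 0.02 (adjusted p = 0.0109), a difference of the size of the rounding step that was lost when noise within that step was added (adjusted p = 0.152). It was -0.38 after quantile normalisation, 0.00 after median centring and 1.29 on the Bacillus scale. The other decrease was that of NaCP60E, by 0.60 ± 0.16 (SE; limma adjusted p = 0.0225), and is named after its values were seen. Leaving out any mutant array, or wild-type replicate 1, turned the 2 decreases into 1, that of sei. Para, the main voltage-gated sodium channel, read 2.20 ± 0 in wild-type and 2.23 ± 0.06 in mutant embryos (SD, n = 3 each), and is named after its values were seen.

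The other P-type ATPases, relatives of the alpha subunit among which are ion pumps and lipid flippases, went both ways. Of 8 tested, 3 rose, 1 fell and 4 did not pass, with a median of 0.07. SERCA, the calcium pump of the endoplasmic reticulum, rose by 0.90 ± 0.09 (limma adjusted p = 0.000534), and its other probe sets differed by 1.07 and 0.30. PMCA, the calcium pump of the plasma membrane, rose by 0.47 ± 0.09 on its brightest probe set (adjusted p = 0.00595) and by 0.57 on another, but the remaining probe set fell by 0.80 on the log2 scale. The mean of the PMCA probe sets differed by 0.08 and did not pass (adjusted p = 0.532). CG4301, under a level of 4 on all wild-type arrays, differed by 1.77 ± 0.16, and ATP7, a copper transporter under 4 on all mutant arrays, by -1.17 ± 0.11. Each was tested only through the genotype in which it was higher, and ATP7 was 0.22 on the Bacillus scale. Without wild-type replicate 3, 5 were called higher.

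Markers of late differentiation were higher on the same mutant arrays. All 12 that were tested rose, each at least 2-fold, with a median of 3.25, against 13.3% of all genes that were called and at least 2-fold higher. The list was chosen with earlier results of these data known, so nothing is read from that count. The 12 included the cuticle genes TwdlN (4.87 ± 0.05 SE), TwdlM (3.90 ± 0.05) and the myosin light chain gene Mlc1 (3.47 ± 0.04), with limma adjusted p of 4.56e-07 to 6.18e-07. The cuticle gene Cpr56F differed by 3.67 ± 0.04, but it lay under a level of 4 on all wild-type arrays and was tested only through its mutant values. Over the 15 measured genes of this list the median was 2.97 and the mean level 5.81 to 5.84 on the wild-type arrays and 8.30 to 8.33 on the mutant arrays, with Act88F and Cpr47Ef at the floor. The difference of nrv3, 3.37, lay within the range of the 12 tested genes, 1.70 to 4.87. Whether the genotypes differed in embryonic stage at collection, and what part the late genes had in the nrv3 and nrv1 differences, was not tested.

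Mesoderm and blood markers divided by gene. Of 7 tested, 3 rose, 2 fell and 2 did not pass, with a median of 0.10. The collagen genes vkg (3.80 ± 0.09 SE, limma adjusted p = 3.26e-06) and Col4a1 (3.57 ± 0.14, adjusted p = 1.95e-05) rose, as did the basement membrane peroxidase gene Pxn (0.83 ± 0.10, adjusted p = 0.00122). The 2 that fell were gcm, which also acts in blood cells and stood on this list too, and twi (-0.37 ± 0.06 SE, limma adjusted p = 0.00452). Bap and srp did not pass, with differences of 0.03 and 0.10. Twi, bap and srp are named after their values were seen. The mean level over the 8 measured genes was 7.49 to 7.65 in wild type and 8.55 to 8.61 in the mutant.

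**Figure D4:**
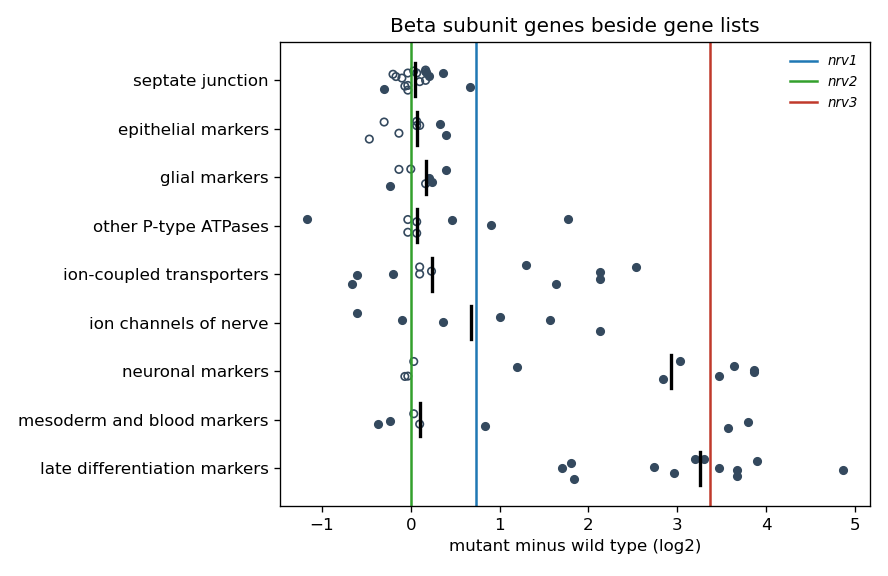
Mutant minus wild-type difference (log2, horizontal axis) of each tested gene of 9 lists, filled where the adjusted p was under 0.05 (limma) and open where not, with black bars at the list medians and vertical lines at nrv1 (0.73), nrv2 (0.00) and nrv3 (3.37). The septate junction, epithelial and glial points cluster around the nrv2 line, where a gene without a difference lies. Points of the other P-type ATPases and of the mesoderm and blood list lie there too. Those around the nrv3 line come mainly from the neuronal and late differentiation lists, with the collagen genes vkg and Col4a1.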

How the data were processed

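The authors deposited log2 expression levels made with GCRMA, per the submitters' processing notes (version and options: not given in the sources used here). That the scale is log2 was read from the deposited values, which ran from 2.2 to 15.1 with 1 decimal. No test used the 183 control probe sets. Of the others, 13647 had 1 gene symbol, 402 several and 4720 none. Symbols were updated through gene identifiers for 13544.

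Probe sets that reached 4 on 3 or more of the 6 arrays were tested with limma 3.58.1 in R 4.3.3 (lmFit, eBayes, no block), with Benjamini-Hochberg adjustment over all 8334 and calls under 0.05. A gene was represented by its probe set of highest mean. After rounding, 2011 tested probe sets did not vary within 1 or both genotypes, and 60 of 5459 calls had a difference of 0.1 or less. The test was checked on simulated data in which 200 probe sets were changed, far fewer than were called here, so that check does not vouch for these calls. The number of arrays limits the precision.

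Members, lists and tests were chosen with earlier results of these data known. Named from each of the other lists were up to 4 called genes of smallest adjusted p, or the 2 of highest mean where none was called, with all measured pump-like genes, and for each subunit gene the 3 genes of most similar profile. The 10 lists hold 136 genes. The replicate numbers are not said to pair arrays, so they were not treated as pairs. Deviations of same-numbered arrays correlated at 0.17, -0.01 and 0.27, which does not decide the question, since unlike-numbered arrays were not compared. Alternatives were other filters, scales, priors, weights, a replicate block, each array left out, averaging the probe sets of a gene and, added after seeing the data, noise within the rounding interval.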

Additional observations from a re-analysis of the deposited data

How the results depend on the processing

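The differences of nrv1 and nrv3 were above 0 under all 17 alternatives, and that of nrv2 moved to 1.39 on the Bacillus scale. The genes were chosen in view of this contrast, so this describes the values and is no support for a difference. Leaving out each array in turn gave 0.67 to 0.82 for nrv1, -0.03 to 0.03 for nrv2 and 3.30 to 3.45 for nrv3. The within-array shifts ran from 3.27 to 3.47 (nrv3 minus nrv2), 2.55 to 2.73 (nrv3 minus nrv1) and 0.65 to 0.80 (nrv1 minus nrv2) with an array left out. With the replicate number as a block the differences stayed at 0.73, 0.00 and 3.37, and the list genes called were 43 higher and 6 lower, against 43 and 9. On the Bacillus scale 7714 probe sets were called higher and 51 lower, against 2055 and 3404, or 99.3% of calls higher against 37.6%, and 51.5% after median centring. The median difference over tested probe sets was 1.29 on that scale and 0.00 after centring. Over the lists together 85 genes were called higher on the Bacillus scale and 0 lower, and after centring 5 lower. With an array left out the lists gave 39 to 48 higher and 6 to 12 lower, and all probe sets 4710 to 5713 calls, 1870 to 2186 of them higher and 2840 to 3527 lower. Among the genes named by the rule, those that turned to higher on the Bacillus scale were ATP7 (0.22), l(2)gl (1.09), sei (1.29), gcm (1.15), AP-2sigma, ATPsynepsilonL and CG13197 (1.35 each). A constant added to each array makes that scale, so every difference moves by the same amount, and other small decreases, such as that of elav, turn as well. Of 722 other values for the 43 further genes named, 694 kept their side of the threshold and, where called, their direction. Among single lists, a filter at 6 left 1 transporter and 1 channel gene called higher, against 5 and 4, and array weights called 8 septate junction genes higher and 3 lower, against 4 and 1. Low signal kept measured genes of the channel, transporter and neuronal lists out of the test.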
